A study of Mus musculus with 6 samples.

Results

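The genes described here are 9 genes of the ILC3 and ILC1 programmes, chosen by name: Ahr, Il22, Il17a, Il17f, Il23r, Tbx21, Ifng, Il12rb1 and Il12rb2. They were measured in lung group 2 innate lymphoid cells (ILC2s), and 6 of the 9 were among the 16588 genes of the count table. The lowest total in that table was 10 counts over the 6 libraries, and by the rule of selection a symbol outside it had fewer. Il23r, Ifng and Il12rb2 were outside it and are not analysed further here. Of the 6 genes with counts, 4 passed the filter on low counts: Ahr, Il12rb1, Il17f and Il22.

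The study compared ILC2s of C57BL/6 mice (wild type, WT, 3 libraries) with ILC2s of mice labelled Cnr2 KO (3 libraries, KO-labelled below), and Cnr2 encodes the cannabinoid receptor CB2. All mice were given IL-33 (recombinant, mouse, 0.5 µg) intranasally on 3 days in a row. Cells were taken from the lung on day 4, sorted and cultured for 18 h, and cDNA was made from 10 pg of RNA per sample. The series title names adipose tissue, whereas the labels of all 6 samples name lung. The labels do not give age, the way the knockout was made, or whether each replicate was its own animal or culture. The p-values therefore cover the spread among these samples, which may be technical.

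WT replicate 2 held 129617689 counts, 6.88 times the mean of the other 5 libraries, which held 17867541 to 19399819. Cnr2 transcripts went against the label: WT libraries held 76, 503 and 60 counts of it, and KO-labelled libraries 147, 139 and 135 (3.69 ± 0.449 and 7.49 ± 0.0627 CPM, SD, n = 3 each). Values per gene cannot show whether an exon is missing, and directions below rest on the labels. All 16 listed ILC2 markers were counted, and their sum was 15045 to 15685 TMM-scaled CPM in WT against 15227 to 16403 CPM in the KO-labelled libraries. Il5, which was not called, made up 34.0% of that sum, while 12 of the 16 markers were higher and 3 lower (median log2 fold change 0.75). Nmur1, the neuromedin U receptor, was 9.31-fold and Arg1, arginase, 2.31-fold higher, and Il2ra, the IL-2 receptor α chain, was 2.03-fold, Il13 1.89-fold and Areg, amphiregulin, 1.74-fold lower. Of 12150 genes tested, 33.1% were higher and 33.2% lower in the KO-labelled libraries (adjusted p under 0.05 in edgeR), a background against which each count below has to be read.

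Innate lymphoid cells mirror helper T cell classes. ILC3s respond to IL-23 and make IL-17A, IL-17F and IL-22, while ILC1s depend on T-bet, the product of Tbx21, respond to IL-12 and make interferon-γ. The receptors for IL-12 and IL-23 share the chain encoded by Il12rb1, which pairs with the Il12rb2 product for IL-12 and with the Il23r product for IL-23. AHR is a ligand-activated transcription factor that ILC3s need for IL-22, and that is also found in ILC2s.

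Of the 6 genes with counts, 4 (Il17a, Il17f, Il22 and Tbx21) were at 0 counts in all 3 KO-labelled libraries, as were 2.21% of the genes of the table. Of these, Il17a, Il17f and Il22 had counts in all 3 WT libraries, a pattern of 0.989% of the table. The reverse pattern was shown by 0 of the 6 and by 0.127% of the table. The depth of WT replicate 2 makes 0 counts in all WT libraries harder to reach, so these shares cannot be compared with each other. The 250 bases before the annotated starts of Il17a, Il17f, Il22 and Tbx21 are printed below. They show the regions next to the genes that were at 0 together in the KO-labelled group. The sequences are from RefSeq (GRCm38.p6) and run 5′ to 3′ on each gene's strand. Capitals mark matches, on either strand, to the letters searched: GCGTG (the AHR core), AGGTCA (a ROR half-site), TTCNNNGAA (STAT), TGANTCA (AP-1) and TCACAC (T-box).
Il17a, chr1:20730655-20730904, plus strand: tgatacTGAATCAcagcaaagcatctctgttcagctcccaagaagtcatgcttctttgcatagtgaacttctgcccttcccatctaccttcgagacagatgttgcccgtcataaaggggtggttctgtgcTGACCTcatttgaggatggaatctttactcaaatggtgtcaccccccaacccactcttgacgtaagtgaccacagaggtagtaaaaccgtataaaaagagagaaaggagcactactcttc
Il17f, chr1:20784271-20784520, minus strand: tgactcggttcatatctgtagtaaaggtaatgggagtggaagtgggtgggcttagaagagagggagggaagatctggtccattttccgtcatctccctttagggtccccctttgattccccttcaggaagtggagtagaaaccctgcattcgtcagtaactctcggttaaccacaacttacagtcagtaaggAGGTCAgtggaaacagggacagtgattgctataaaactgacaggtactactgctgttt
Il22, chr10:118204714-118204963, plus strand: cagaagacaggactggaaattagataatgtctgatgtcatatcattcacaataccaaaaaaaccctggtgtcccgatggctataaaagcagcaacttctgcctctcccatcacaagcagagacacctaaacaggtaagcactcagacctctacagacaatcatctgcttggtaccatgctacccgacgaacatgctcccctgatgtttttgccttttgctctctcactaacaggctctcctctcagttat
Tbx21, chr11:97115332-97115581, minus strand: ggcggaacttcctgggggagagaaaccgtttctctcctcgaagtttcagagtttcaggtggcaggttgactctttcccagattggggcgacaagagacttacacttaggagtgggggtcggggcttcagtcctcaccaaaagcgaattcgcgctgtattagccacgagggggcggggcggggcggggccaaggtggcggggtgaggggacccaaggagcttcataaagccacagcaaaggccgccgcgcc

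Il17a and Il17f each held 1 match to the ROR half-site, 120 to 115 and 58 to 53 bases before the start, and Il17a also held 1 AP-1 match. Of all 32851 promoter windows of this length, 14.0% held the ROR half-site, 28.2% the AHR core, 7.02% the STAT letters, 6.75% the AP-1 letters and 12.3% the T-box letters. No searched letters were found in the Il22 and Tbx21 windows, and the matches in the printed windows overlapped in 0 places. The Tbx21 window had 60.8% GC and 16 CpG sites, against 45.2 to 47.2% GC and 3 or 4 CpG sites in the other 3 windows and a median of 52.4% GC over all promoters. A match describes letters, not binding. The RefSeq starts used for the windows of Il22 and Il17f lie inside the gene spans of GENCODE M21 given below, that of Il17f by several kilobases.

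The type 17 cytokines were counted at a low level in every WT library and were at 0 in every library labelled Cnr2 KO. Il17f (ENSMUSG00000041872.9, chromosome 1, 20777146 to 20790617, GRCm38), which encodes IL-17F, gave 39, 167 and 40 counts in WT replicates 1, 2 and 3, or 2.05, 1.29 and 2.11 CPM. The deeper WT replicate 2 was the lowest of the 3, below the 95% counting interval of WT replicate 3 (1.51 to 2.88 CPM). Taking 3 counts over the whole KO-labelled group as the floor, and the lower of the mean and the pooled WT level, Il17f was at least 27.6-fold lower there (edgeR adjusted p = 4.80e-07). At the WT mean of 1.82 ± 0.456 CPM, a library of the mean depth of that group would hold 34.1 counts.

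Il22 (ENSMUSG00000074695.3, chromosome 10, 118204942 to 118210047), which encodes a cytokine acting on epithelial cells, gave 21, 214 and 27 counts in WT libraries, or 1.10, 1.66 and 1.43 CPM. It was at least 26.2-fold lower in the KO-labelled libraries (edgeR adjusted p = 6.46e-07). The near-identical copy Iltifb lies on the same chromosome, 118289629 to 118295038, and was outside the table, so reads could be split between the copies. Il17f and Il22 passed the filter on low counts through the WT group alone, so with 0 counts in the other group they had to differ, and their tests give no support beyond the counts themselves.

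Il17a (ENSMUSG00000025929.4, chromosome 1, 20730905 to 20734496), which encodes IL-17A, gave 17, 121 and 5 counts in WT libraries, or 0.893, 0.937 and 0.264 CPM. WT replicate 3 was the lowest, with a counting interval of 0.0858 to 0.617 CPM that did not reach the level of either other WT library. Il17a was left out by the filter on low counts and was at least 13.1-fold lower in the KO-labelled libraries against the floor. Without the filter its edgeR adjusted p was 3.88e-05. Each library labelled Cnr2 KO allowed at most 0.189 to 0.205 CPM of any of these genes at the upper end of the 95% counting interval, and the group as a whole allowed 0.0656 CPM. That limit was below every WT value of Il17a, Il17f and Il22.

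Tbx21 (ENSMUSG00000001444.2, chromosome 11, 97098071 to 97115331) gave 0, 14 and 5 counts in WT replicates 1, 2 and 3 and 0 in each library labelled Cnr2 KO. The groups overlapped at 0, since WT replicate 1 also had none. The pooled WT level was 0.114 CPM with a 95% counting interval of 0.0684 to 0.178, near the 0.0656 CPM that a count of 0 allowed in the other group. Without the filter on low counts the edgeR adjusted p was 0.0557, and in DESeq2 it was 0.172, so a difference in Tbx21 was not detectable at this depth.

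**Figure D1:**
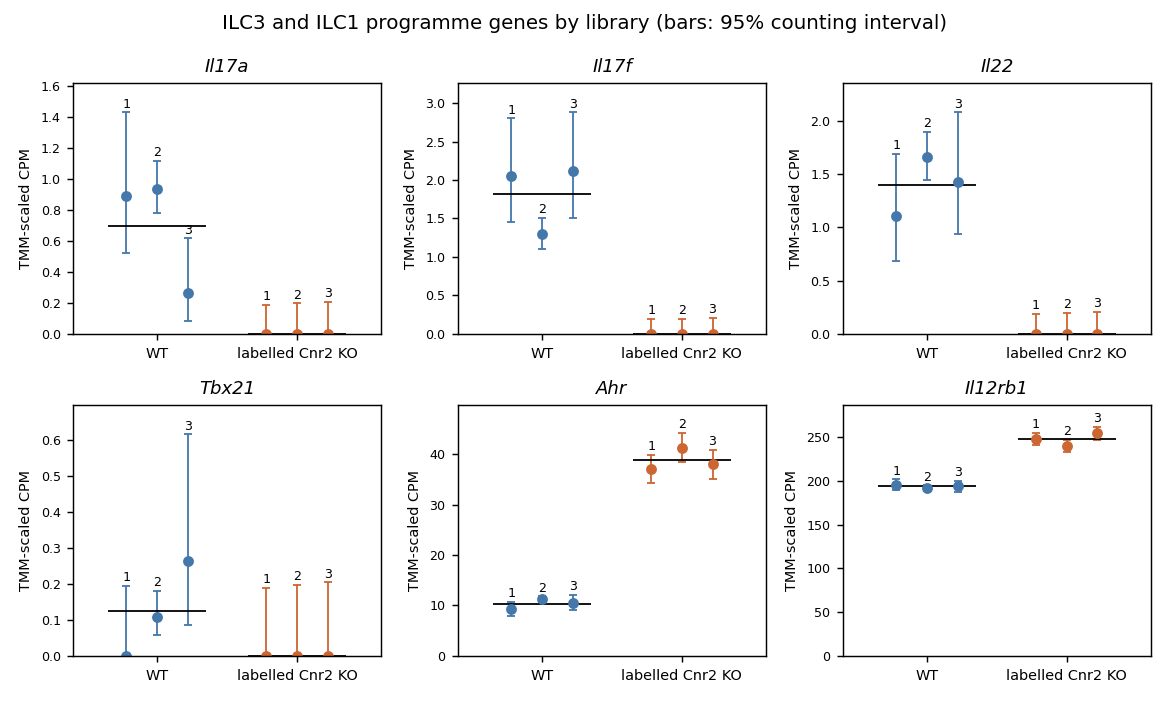
Levels of the 6 counted genes in TMM-scaled CPM (vertical axes from 0) in the 3 WT libraries and the 3 KO-labelled libraries, with replicate numbers, 95% Poisson counting intervals as bars and group means as lines. Il17a, Il17f, Il22 and Tbx21 sit at 0 in every library labelled Cnr2 KO, whereas Ahr and Il12rb1 are higher in each of those libraries than in each WT library.

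In contrast to the cytokines, the receptor genes Ahr and Il12rb1 were higher in the KO-labelled libraries. Thus of the 4 genes tested, 2 were higher and 2 lower, against a background of 66.3% of tested genes called in either direction. The 2 lower genes, Il17f and Il22, passed the filter through WT alone and had to differ, so the count cannot be compared with that share. Ahr (ENSMUSG00000019256.17, chromosome 12, 35497974 to 35535038) gave 176, 1445 and 199 counts per WT library and 721, 773 and 685 counts per KO-labelled library. These were 9.24, 11.2 and 10.5 CPM in WT against 37.0, 41.3 and 38.0 CPM in KO-labelled libraries, with no overlap between groups, as in 68.9% of all tested genes. The difference was 3.76-fold, or 1.88 ± 0.09 in log2 units (SE, edgeR adjusted p = 1.49e-12). The annotation places the gene Gm48236 over Ahr.

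Il12rb1 (ENSMUSG00000000791.9, chromosome 8, 70808449 to 70821424) was the most abundant of the genes, at 195.3, 192.5 and 193.7 CPM in WT against 247.8, 239.8 and 254.6 CPM in KO-labelled libraries. The groups did not overlap, and the spread within WT was 1.44 CPM (SD). The difference was 1.28-fold, or 0.35 ± 0.05 in log2 units (SE, edgeR adjusted p = 1.35e-06). Neither of its partner chains, Il12rb2 and Il23r, was among the genes of the table.

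Per kilobase of exon, the WT levels ran from 47.2 ± 0.352 CPM for Il12rb1 to 1.67 ± 0.160 for Ahr, 1.26 ± 0.251 for Il22, 0.899 ± 0.226 for Il17f, 0.596 ± 0.321 for Il17a and 0.0499 ± 0.0534 for Tbx21 (SD, n = 3). Neighbours in the order from Il22 to Il17a lay within their spread of each other, whereas Il12rb1 and Tbx21 stood apart from the rest and Ahr lay above Il22 by a narrow margin. In the KO-labelled libraries, Il12rb1 stood at 60.3 ± 1.79 and Ahr at 6.29 ± 0.362 CPM per kilobase. On the same scale Gata3, the factor that specifies ILC2s, was at 72.5 ± 3.38 in WT and 269.8 ± 4.71 in the KO-labelled libraries.

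The genes nearest to Ahr and Il12rb1 in profile were found by the root mean square distance of log2 CPM, centred over the 6 libraries, among 8330 other genes of at least 10 CPM. For Ahr they were Ecm1, which encodes an extracellular matrix protein, at a distance of 0.05, and Tmem64, which encodes a membrane protein, at 0.07. Ecm1 was at 23.5 ± 2.33 CPM in WT against 84.0 ± 1.31 CPM in KO-labelled libraries. For Il12rb1 they were Atp5j2, an ATP synthase subunit, at 0.02 and Resf1 at 0.02. Distances of this kind reflect mainly the difference between groups, which the 6 libraries share.

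Most tested genes of the AHR pathway were higher in the KO-labelled libraries, but 2 genes of the chaperone complex that holds AHR in the cytosol were lower. Of 15 listed genes 11 were tested, Ahr included, and 6 were higher, 2 lower and 3 not called, with a median log2 fold change of 0.72 against 0.01 over all tested genes. Lpar6, a lysophosphatidic acid receptor that lies within Rb1, was at 8.14 ± 1.13 CPM in WT against 102.8 ± 13.5 CPM in KO-labelled libraries (12.6-fold). Nqo1, a quinone reductase and AHR target, was at 36.8 ± 0.961 and 184.2 ± 33.1 CPM (5.0-fold). Hsp90ab1, which encodes the chaperone HSP90β, was 1.88-fold lower and Ptges3, its co-chaperone p23, 1.80-fold lower. Arnt, the partner of AHR on DNA, stood at 72.7 ± 0.887 and 78.2 ± 3.26 CPM (edgeR adjusted p = 0.122). Arnt and the genes of the next paragraph were chosen after their values were seen.

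Classical AHR target genes were highest in replicate 3 of the KO-labelled libraries, although Ahr itself was not. Ahrr, which encodes the AHR repressor and is induced by AHR, had 34, 156 and 22 counts in WT and 218, 178 and 347 in the KO-labelled libraries, or 1.79, 1.21 and 1.16 CPM against 11.2, 9.51 and 19.2 CPM. Tiparp, which encodes an ADP-ribosyltransferase that restrains AHR, was at 39.2, 39.3 and 35.5 CPM in WT against 50.5, 45.0 and 93.5 CPM in KO-labelled libraries. Cyp1a1, the best known AHR target, had 1, 11 and 0 counts in WT and 1, 0 and 41 in the KO-labelled libraries, so replicate 3 held nearly all of the counts of its group, at 2.27 CPM with a counting interval of 1.63 to 3.08. In that library the level was 1.96 times the mean of the other 2 for Tiparp, 1.86 times for Ahrr, 1.80 times for Aldh3a1, 1.34 times for Nqo1 and 1.23 times for Lpar6, but 0.970 times for Ahr. This is a comparison of 1 library with 2 and has no test. Some myeloid markers were also highest there: in KO-labelled replicates 1, 2 and 3, Itgam gave 0, 4 and 15 counts, Lyz2 4, 4 and 12 and Cd68 60, 50 and 74. The summed myeloid markers were lowest in that library (26.5 CPM), and the part of these markers in the AHR target levels was not tested. Without replicate 3, Ahrr still passed as higher (log2 fold change 2.96, against 3.33 with it, edgeR adjusted p = 1.23e-08), as did Tiparp (0.32 against 0.72, edgeR adjusted p = 2.87e-03). Aldh3a1, an aldehyde dehydrogenase, did not (0.46 against 0.79, edgeR adjusted p = 0.220), nor without WT replicate 2, where its log2 fold change was nearly the same (0.78, edgeR adjusted p = 0.0789), or without WT replicate 3.

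**Figure D2:**
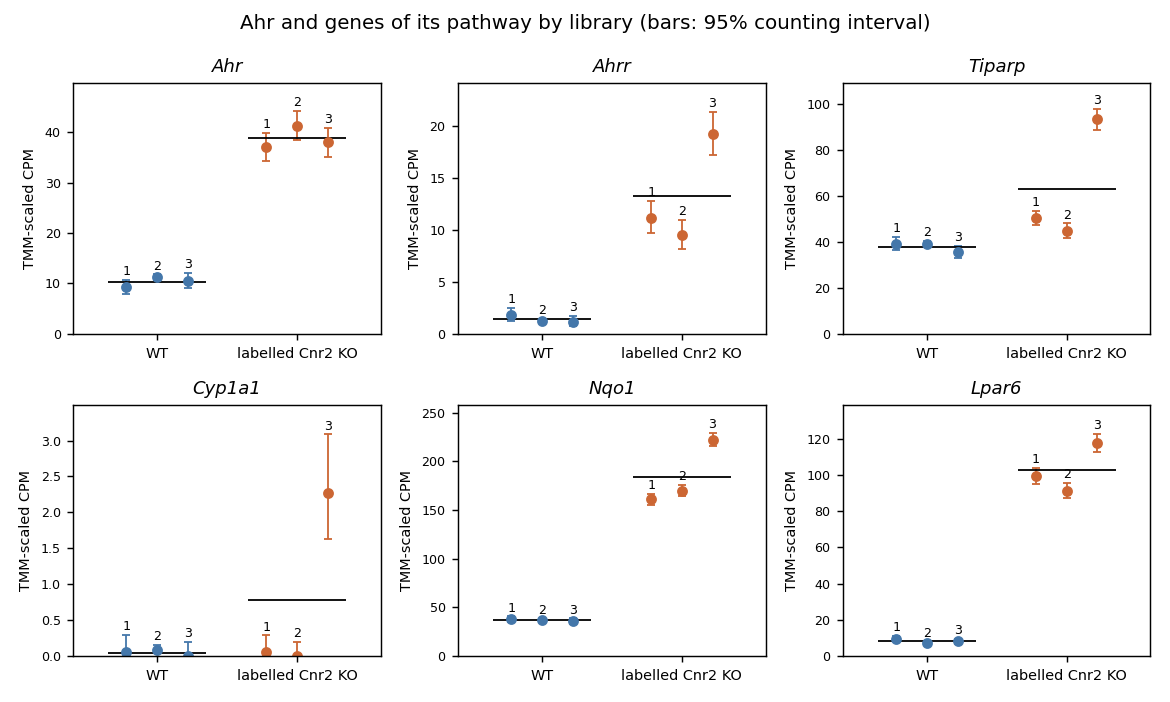
Levels of Ahr and 5 genes of its pathway in TMM-scaled CPM (vertical axes from 0) by library, with replicate numbers, 95% Poisson counting intervals as bars and group means as lines. Replicate 3 of the KO-labelled libraries is the highest for Ahrr, Tiparp, Cyp1a1, Nqo1 and Lpar6 but not for Ahr.

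The signalling genes of the IL-12 and IL-23 receptors changed in different directions. Of 15 listed genes 10 were tested, Il12rb1 included, with 5 higher, 3 lower and 2 not called (median log2 fold change 0.20). The kinases that bind these receptors moved apart: Tyk2 was 1.49-fold higher (107.0 ± 3.52 against 159.8 ± 2.42 CPM) and Jak2 1.57-fold lower (219.2 ± 6.09 against 140.0 ± 1.73 CPM). Stat4, which carries the IL-12 signal, rose from 23.5 ± 0.690 to 123.9 ± 2.79 CPM (5.27-fold, edgeR adjusted p = 1.85e-16), whereas Stat3, which carries the IL-23 signal, stood at 438.4 ± 14.1 and 455.8 ± 16.6 CPM (log2 fold change 0.06, SE 0.05, edgeR adjusted p = 0.280). Of the feedback inhibitors, Socs1 was 1.79-fold higher and Socs3 2.15-fold lower, and Il27ra, the IL-27 receptor chain, was 1.26-fold lower. The ligand genes Il12a, Il12b and Il23a were outside the table. Stat3 was named after its values were seen, and Stat4, Tyk2 and Il27ra overlap other annotated genes.

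Among listed receptor genes for cytokines of these programmes, most of those tested were higher in the KO-labelled libraries, but several chains were not tested. Of 11 listed genes 6 were tested, with 4 higher, 0 lower and 2 not called (median log2 fold change 0.76). Ifngr1, the ligand-binding chain of the interferon-γ receptor, was at 94.4 ± 9.43 CPM in WT against 203.2 ± 5.20 CPM in KO-labelled libraries (2.15-fold). Il17rb, a chain of the IL-25 receptor that marks ILC2s, was 5.12-fold higher and Il10rb, a chain shared by the IL-22 and IL-10 receptors, 1.78-fold higher. Il17ra, a chain of the IL-17A and IL-17F receptor named after its values were seen, was 1.62-fold higher, and Ifngr2 and Traf3ip2 were not called. Il17rc, Il17rd and Il17re were left out by the filter on low counts, with overlap between groups. Of these, Il17rc gave 2, 27 and 0 counts in WT and 0 in each KO-labelled library, and was named after its values were seen. Il22ra1 and Il22ra2 were outside the table.

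Genes that regulate type 17 cytokines split evenly, and Irf4, Batf and Nfkbiz, which promote IL-17 expression in T cells, were among the lower ones. Of 22 listed ILC3 and type 17 genes 16 were tested, with 6 higher, 7 lower and 3 not called (median log2 fold change -0.09). Irf4 was at 309.2 ± 19.3 CPM in WT against 60.0 ± 7.69 CPM in KO-labelled libraries (5.16-fold lower), and Batf, its AP-1 family partner, at 271.8 ± 19.4 and 59.2 ± 1.53 CPM (4.59-fold lower). Nfkbiz, an IκB family protein that promotes IL-17 expression, was 2.62-fold lower. In the other direction Ltb, which encodes lymphotoxin β, was 5.28-fold, Rora 2.24-fold and Kit, the stem cell factor receptor, 1.76-fold higher.

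ILC1 and type 1 genes also went both ways. Of 25 listed genes 13 were tested, with 5 higher, 5 lower and 3 not called (median log2 fold change 0.23), and Eomes, a T-box factor of NK cells, was outside the table. Cxcr6, a chemokine receptor found on several innate lymphoid cells, was at 732.3 ± 43.8 CPM in WT against 1493 ± 65.1 CPM in KO-labelled libraries (2.04-fold). The chains of the IL-18 receptor moved apart, with Il18rap 1.42-fold higher and Il18r1 2.25-fold lower. Irf1, an interferon-γ-induced factor, was 1.31-fold higher, Il2rb, a receptor chain for IL-2 and IL-15, 1.29-fold lower, and Runx3, a factor of cytotoxic and ILC1 lineages, 1.49-fold lower.

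Factors known to restrain the ILC1 or ILC3 programmes were higher in 5 cases of 9 and lower in 3, with 1 not called (median log2 fold change 0.18). Gata3 was 3.72-fold, Bcl11b, an ILC2 factor, 1.75-fold and Socs1 1.79-fold higher. Bcl6, a transcriptional repressor, was 3.65-fold lower, from 3.32 ± 0.397 to 0.911 ± 0.166 CPM. Gfi1, a repressor that supports ILC2 identity, was 1.39-fold lower (95.8 ± 0.659 against 69.1 ± 6.17 CPM).

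**Figure D3:**
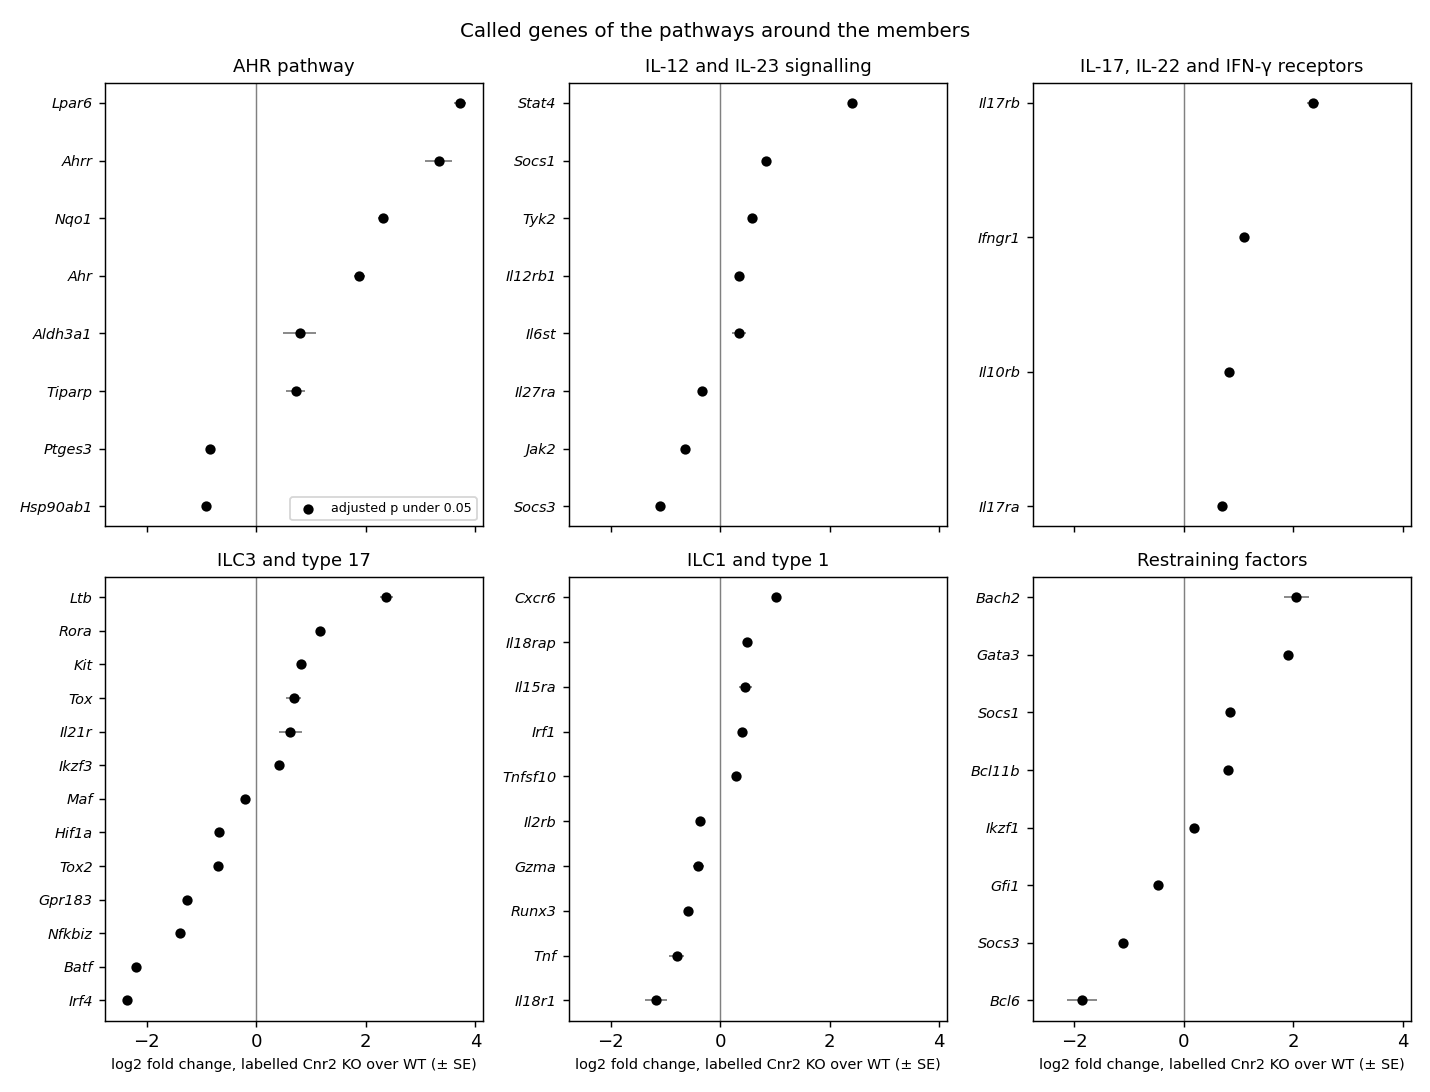
Log2 fold change (labelled Cnr2 KO over WT, horizontal axes) of the genes called by edgeR (adjusted p under 0.05) in 6 lists, with approximate SE as bars. Genes that were tested and not called are not drawn. Lpar6 and Ahrr lie furthest to the right in the AHR panel, and Irf4 and Batf furthest to the left in the type 17 panel.

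Markers of other cells that make these cytokines were looked for in the same libraries, since in bulk RNA fewer cells of a type and less RNA per cell cannot be told apart. Of 6 ILC3 markers 3 were counted, and the sum of 94.8 to 106.2 CPM in WT against 165.6 to 181.5 CPM in the KO-labelled libraries was 99.3% Kit, which ILC2s also express. Il1r1 had 2, 14 and 0 counts in WT and 1, 0 and 0 in the KO-labelled libraries, and Ccr6, Cxcr5 and Ncr1 were outside the table.

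Of 9 γδ T cell markers 5 were counted, summing to 8.09 to 9.30 CPM in WT against 119.7 to 134.7 CPM in the KO-labelled libraries, of which Trgc1, a γ chain constant gene, made up 98.2%. The other 4 went different ways. Trgc2, a second such gene, gave 0, 17 and 0 counts in WT and 9, 7 and 7 in the KO-labelled libraries, higher in each of them as Trgc1 was. Trdc, the δ chain constant gene, had 8, 25 and 10 counts in WT and 17, 6 and 7 in the KO-labelled libraries. Sox13, a factor of IL-17-producing γδ T cells, had 4, 35 and 16 counts against 4, 1 and 0, and Cd163l1, a surface marker of such cells, 6, 59 and 12 against 3, 0 and 0. Sox13 and Cd163l1 were left out by the filter on low counts. Cd163l1 had less CPM in every KO-labelled library than in any WT library. Sox13 did too, but by a narrow margin. Replicate 1 of each group held 4 counts of Sox13 and was parted only by depth (0.210 CPM in WT and 0.205 CPM in KO-labelled). The pooled Sox13 level was 0.329 CPM in WT (counting interval 0.248 to 0.428) and 0.0889 CPM in KO-labelled libraries (0.0289 to 0.2075). These pooled intervals were apart. Groups did not overlap in 68.9% of all tested genes. Over the KO-labelled group Sox13 held 5 counts and Cd163l1 3, where the cytokines held 0. The pooled interval of Cd163l1 there was 0.0110 to 0.156 CPM. Both KO-labelled intervals overlap the 0 to 0.0656 CPM that a count of 0 allowed, so these levels cannot be told apart. The part of Sox13 and Cd163l1 in the cytokine result was not tested. Trgc1 belongs to a family of similar constant genes between which reads can be split.

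T cell markers, 7 of 11 counted, summed to 61.0 to 63.9 CPM in WT against 110.4 to 116.7 CPM in the KO-labelled libraries, mostly Trbc2, a β chain constant gene. Cd3g was 3.71-fold higher, whereas Trac, the α chain constant gene, was 3.19-fold and Cd6 4.71-fold lower, and Cd4, Cd8a, Cd8b1 and Cd5 were outside the table. NK and ILC1 markers, 2 of 8 counted, summed to 56.7 to 77.7 CPM and 46.1 to 59.8 CPM, with overlap, and were 97.1% Gzma, a granzyme (1.30-fold lower, edgeR adjusted p = 2.69e-03, with overlap between groups and no call in DESeq2). B cell markers, of which Cd79b alone was counted, stood at 16.1 to 17.2 and 25.1 to 26.3 CPM, and myeloid markers, 6 of 8 counted and mostly Xcr1, a chemokine receptor, at 10.0 to 14.1 and 26.5 to 29.4 CPM. Of the macrophage genes in that list, Cd68 was 2.41-fold higher (edgeR adjusted p = 8.94e-04), and Adgre1, which encodes F4/80 and was named after its values were seen, gave 0, 0 and 0 counts in WT and 3, 19 and 16 in the KO-labelled libraries. The exact permutation p was 0.1, the smallest possible with 3 against 3, for the ILC3, T cell, γδ T cell, B cell and myeloid sums, 0.2 for the ILC2 and NK sums, and 0.14 and 0.2 after Benjamini-Hochberg adjustment over 7 sums (two-sided).

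**Figure D4:**
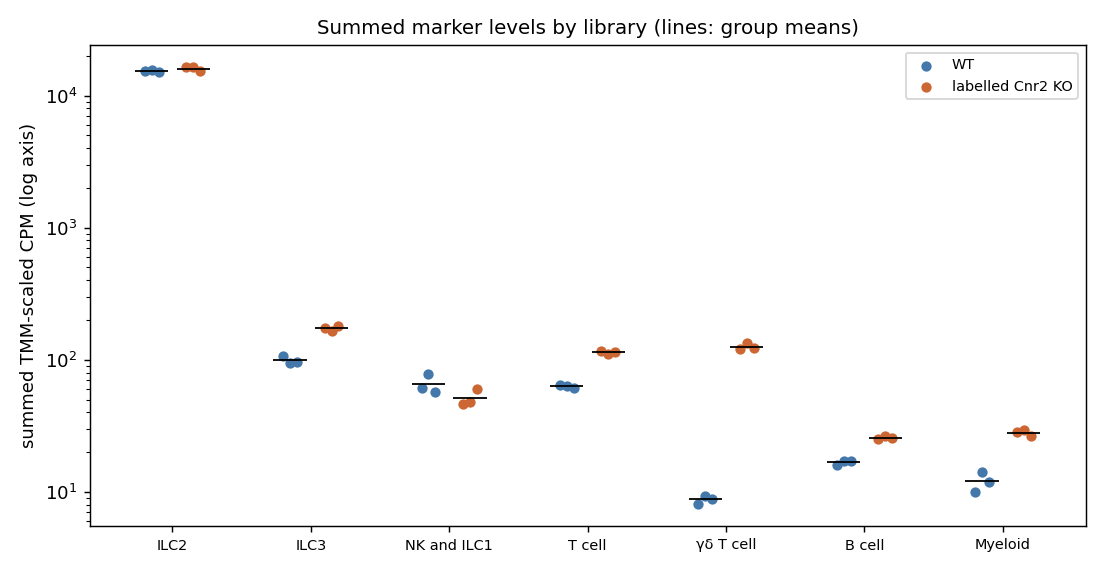
Summed TMM-scaled CPM of 7 marker lists (log vertical axis) in each library, with points for libraries and lines for group means. The γδ T cell sum, which is 98.2% Trgc1, shows the widest gap, and the NK and ILC2 sums overlap between groups.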

How the data were processed

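RNA was sequenced in 6 libraries, 3 per group. The authors deposited expected counts, estimated counts per gene and library that need not be whole, with 0 blank and 0 repeated names among 16588 genes. The tools named, without their roles, are DESeq2, STAR 2.7.8 and Partek 10.0, and the build is mm10, per the submitters' processing notes. How reads were counted, and with which strand setting, is not given in the sources used here. Reads shared by overlapping genes therefore stay uncertain. Total counts ranged from 17867541 to 129617689 per library.

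Values were rounded to whole counts and tested for genotype alone by quasi-likelihood in edgeR 4.0.16 (R 4.3.3). Libraries were scaled by TMM, and filterByExpr ran at its defaults, a count of 10 and a total of 15. The filter left out 4438 genes, and Benjamini-Hochberg adjustment ran over the 12150 tested. Levels are CPM on TMM-scaled library sizes. An approximate standard error (SE) is the absolute log2 fold change divided by the square root of the F statistic. Counting intervals are exact Poisson intervals at 95%, and a group at 0 is given a floor of 3 counts over the group. Intervals and floors cover counting error only. Gene positions and exon lengths are from GENCODE M21 (GRCm38, the build named mm10), to which 16233 genes matched by symbol. Promoters are from RefSeq (GRCm38.p6).

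The members and gene lists were chosen with earlier results of these data known. Named genes are the 9 members, Cnr2, up to 3 called genes per direction with the smallest p in each list, Eomes, Il12b and Il23a, and for each member of at least 10 CPM the 2 genes nearest in profile. Some listed genes are counted in the lists and not reported by name here. Genes outside this rule are named as chosen after their values were seen, and the 250 kb window around each member was set later. Alternatives were DESeq2 size factors, no filter, a stricter filter (1 CPM in 3 libraries), a replicate block, DESeq2 1.42.0, limma-voom (limma 3.58.1) with quality weights, thinning of WT replicate 2, a threshold of 0.01 and leaving out each library. An offset for GC content and length, DESeq2 with a replicate block, and list counts without single libraries were added after seeing the data. Within groups, chi-square per gene between libraries was 4.09 to 8.93, above the value near 1 that sampling noise gives.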

Additional observations from a re-analysis of the deposited data

How the results depend on the processing

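The number of genes higher in the KO-labelled libraries ranged from 3410 to 4104 and the number lower from 3466 to 4368 over 17 alternatives, against 4019 and 4034, and all 17 values of each stayed within 1.5 times. Leaving out 1 library gave 3749 to 3869 higher and 3771 to 3957 lower. Ahr (log2 fold change 1.81 to 1.97) and Il12rb1 (0.32 to 0.38) kept their direction and call in all 17. Il17f and Il22, at 0 in every KO-labelled library, were called in all 17, which the choice of setting could hardly change. Il17a entered the test and was called lower without the filter, in DESeq2 with and without the block, and without WT replicate 3 or any 1 of the KO-labelled libraries, which made 3 of the 9 genes lower in place of 2. It too was at 0 in every KO-labelled library, so that call adds nothing to its counts. Of 104 list counts under other scaling, DESeq2 or without WT replicate 2 or KO-labelled replicate 3, 100 stayed within 1.5 times. The other 4 were marker lists in DESeq2: NK lower 0, where Gzma lost its call, γδ T cell higher 2 and lower 1, and myeloid higher 4. The cause was not tested.

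With a replicate block, edgeR called 4061 genes higher and 4113 lower and the same 2 and 2 of the 9 genes. Deviations of libraries with the same number correlated at 0.0779, 0.00999 and 0.0606. The values for replicates 1 and 3 were the highest of all pairs, whereas WT replicate 2 correlated best with KO-labelled replicate 3 (0.0153). Correlations this small, with 3 libraries per group, cannot show whether libraries of the same number share a batch. Of 73 called genes in the lists and among the 9, 68 to 72 were still called without 1 library. Depth limits Tbx21 and the genes outside the table.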

Other observations

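The genes near Il17a, Il17f and Il22 were counted in both groups. Mcm3, a subunit of the replicative helicase whose start lies 29.7 kb from that of Il17f, stood at 730.4 ± 4.69 CPM in WT against 708.7 ± 20.0 CPM in KO-labelled libraries (edgeR adjusted p = 0.371). Paqr8, a membrane progestin receptor gene, was 1.70 ± 0.493 and 3.37 ± 0.636 CPM (log2 fold change 1.01, edgeR adjusted p = 2.95e-03), and Tram2 was also higher (1.07). Mdm1, 63.1 kb from Il22, was higher too, at 23.2 ± 1.17 and 34.8 ± 1.12 CPM. These are all the tested genes with any part within 250 kb of Il17a, Il17f or Il22 other than the cytokine genes, and the start of Tram2 lies 288.6 kb from that of Il17f. Beside Il12rb1, Mast3, a kinase gene whose start lies 3.40 kb away, was higher by 0.90 on the log2 scale (edgeR adjusted p = 1.21e-10), and of 19 tested genes in that window 4 were higher and 6 lower.

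Il17f, Il22 and Il17a were 3 of 164 genes, 0.989% of the table, that had counts in all 3 WT libraries and 0 in all 3 KO-labelled libraries, and ranked 7, 6 and 13 among them by WT counts. Ank3, a membrane scaffold gene, and S1pr3, a sphingosine-1-phosphate receptor gene, led with 819 and 668 counts in WT. Il21, which encodes a cytokine made by type 17 and follicular helper T cells, came next with 55, 303 and 62 counts. The chemokine genes Ccl3 (2, 18 and 2 counts) and Ccl4 (10, 38 and 13) and the transcription factor gene Zbtb16 (8, 13 and 7) were also at 0 in the KO-labelled libraries. These genes were chosen after their values were seen.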
